A study of Homo sapiens with 4 samples.

Results

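The cadherins and protocadherins are adhesion receptors that bind one another across cell contacts through calcium-binding extracellular repeats. They were taken here as every row of the expression tables named as a numbered cadherin (CDH), a cadherin-related gene (CDHR), a protocadherin (PCDH) or FAT1 to FAT4. These names gave 97 genes of the 51103 listed. The rule reads names only, so it leaves out the desmosomal cadherins, the CELSR and Dachsous genes and calsyntenins, which were followed as a separate list. It also requires a PCDH name to end in a number, which leaves out PCDH11X and PCDH11Y, without a count in any library. Polyadenylated RNA was sequenced from SCC-15, an established human line labelled as oral squamous cell carcinoma. The 2 REEP6 libraries came from cells made to overexpress REEP6 with a lentivirus and the 2 control libraries from the line labelled negative control, and the cells were harvested after 48 hours. The labels name no clone or promoter for the overexpressing line and do not describe a control vector. They also do not tie replicates to separate cultures, so the p-values reflect only how far these samples spread.

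The classical cadherins hold cells together through a cytoplasmic tail that binds beta-catenin and p120-catenin, with alpha-catenin linking the complex to actin. Type I members such as CDH1 (E-cadherin) and CDH2 (N-cadherin) mark epithelial and mesenchymal states in carcinoma, and type II members are best known from nervous and mesenchymal tissue. Protocadherins adhere more weakly and are known for self-recognition of neurons. The alpha, beta and gamma genes stand in a row in which each variable first exon has its own promoter, and alpha and gamma transcripts are completed by shared constant exons. The FAT proteins are giant cadherins with a link to Hippo signalling and planar polarity.

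Counts assigned to genes summed to between 12856256 and 15208629 per library, and 24021 to 24393 genes had a count. REEP6 itself, a membrane protein of the endoplasmic reticulum, had 348 and 468 counts in the controls and 649 and 680 with REEP6 overexpression. Its level was 11.8 ± 1.07 FPKM (counts scaled to exon length and library total; SD, n = 2) in the control and 20.4 ± 0.602 FPKM with overexpression, a log2 fold change of 0.83 ± 0.112 (SE, edgeR adjusted p 0.000653). The introduced and the resident transcript cannot be told apart in these counts. The libraries go against the squamous label in part: 7 of 12 squamous markers, among them KRT5, KRT14, KRT17, TP63 and SFN, had at most 14 counts in every library, and KRT6A had 0. ITGA6 and PERP were abundant. Of 5 squamous markers tested, SOX2, ITGB4 and EPCAM were higher with REEP6 at an adjusted p under 0.05, beside 11.1% of all tested genes. In bulk RNA, fewer cells of a type and less RNA per cell cannot be told apart.

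Most of the family had few or no counts. No count was seen in any library for 21 of the 97 genes, another 39 had between 1 and 35 counts over all 4 libraries, and 37 reached the 40 summed counts set for testing. A 0 does not show silence where exons are shared and ambiguous reads may have been dropped: of the 21 genes, 4 (PCDH20, PCDHA14, PCDHA2 and PCDHA3) share over 50% of their exon bases with other genes and 12 share under 10%. Of these 37, 4 were higher and 3 lower with REEP6 at an adjusted p under 0.05, and 30 were not called. That is 18.9% called in either direction, beside 23.2% of the 15466 genes tested in all; over all genes 11.1% were called higher and 12.1% lower. The family share lies near that background. The median log2 fold change was 0.01 for the tested members and 0.01 for all tested genes. Of the 15 members with a mean of at least 1 FPKM, 6 were called, and 1 of the 22 tested members below that level was, while 26.6% of all tested genes at or above 1 FPKM were called. With libraries scaled to equal FPKM sums, the share of calls in the higher direction over all genes went from 47.9% to 20.1% and the all-gene median of the log2 fold change to -0.14; with library totals alone that share was 38.3%.

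The family's signal was carried by a few genes. PCDH7, FAT1 and CDH11 held 58.2% and 56.7% of the summed FPKM of the 97 genes in the control libraries and 54.4% and 53.3% in the REEP6 libraries. The sum itself was 94.4 and 84.7 FPKM in the controls and 76.9 and 74.8 FPKM with REEP6. Both REEP6 libraries were below both controls. The 92 genes other than PCDH7, FAT1, CDH11, FAT4 and CDH12 together gave 31.2 and 29.7 FPKM in the controls and 32.9 and 33.2 FPKM with REEP6. CDH11 is not among the genes with a lower level, and FAT4 and CDH12 were set apart with their values known, so the similar sums of the remaining 92 follow in part from that choice. The sums were also not adjusted for the FPKM totals of the libraries. Scaling to equal FPKM sums moved the all-gene median log2 fold change from -0.03 (library totals alone) to -0.14.

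**Figure D1:**
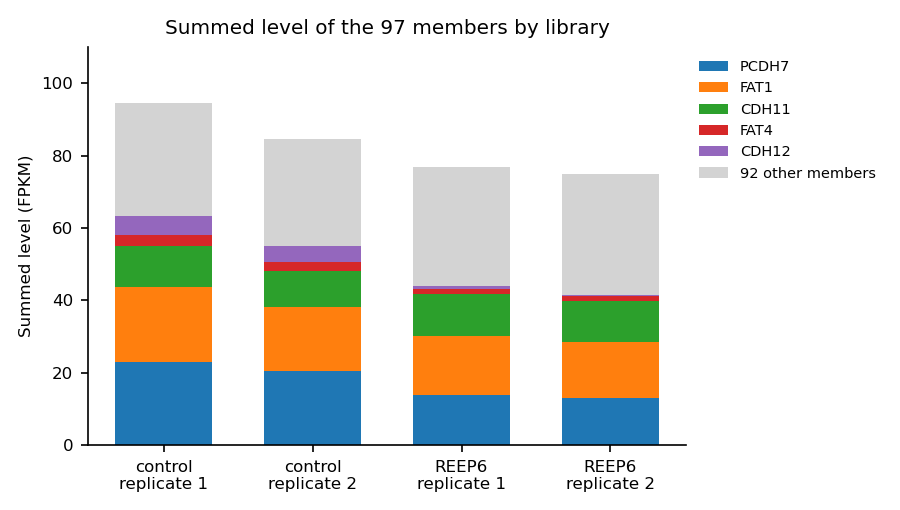
Summed level in FPKM of the 97 cadherin and protocadherin genes in each of the 4 libraries, stacked by gene. The control bars reach 94.4 and 84.7 FPKM and the REEP6 bars 76.9 and 74.8 FPKM, and the grey segment of 92 genes stays between 29.7 and 33.2 FPKM.

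No type I classical cadherin was expressed at a level that could be tested. CDH1, the epithelial cadherin, had 0, 0, 1 and 0 counts in control replicates 1 and 2 and REEP6 replicates 1 and 2, and CDH2 had 0 in all 4. A count of 0 allows up to 3 counts per library, which is 0.197 to 0.233 CPM (counts scaled to the library total), for counting error only. CDH3 (P-cadherin, of basal epithelium) had 1, 3, 4 and 7 counts, CDH4 (R-cadherin) 6, 14, 2 and 5, and CDH15 (M-cadherin, of muscle) 3, 1, 5 and 1. A fall of E-cadherin or N-cadherin, or a rise that stays under this limit, was therefore not detectable at this depth. These names were singled out after their values were seen. Exons of CDH1 and CDH2 overlap those of other genes over 5.62% and 2.75% of their bases, in antisense only.

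Among the classical cadherins, only type II genes reached the test minimum. Of 13 genes, 4 had no count, 4 were under the test minimum and 5 were tested, of which 1 was lower and none higher. The all-gene shares were 12.1% lower and 11.1% higher. CDH12 (N-cadherin 2, known mainly from brain), on chromosome 5 at 21750673 to 22853622 on the minus strand (GRCh38), had 392 and 407 counts in the controls and 59 and 34 with REEP6. The groups lie far apart. Its level fell from 4.83 ± 0.445 to 0.592 ± 0.227 FPKM (SD, n = 2 each), a log2 fold change of -2.98 ± 0.224 (SE, adjusted p 2.23e-05). Among the 15 members with a mean of at least 1 FPKM, CDH12 was the fourth in order of level in the controls and the last with REEP6. The fall was the largest of the 37 tested members, and its log2 value lay between -3.44 and -2.64 when each library was left out in turn.

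CDH11 (osteoblast cadherin, typical of mesenchymal cells), on chromosome 16 at 64943753 to 65126112, had 1953 and 2026 counts in the controls and 2067 and 2049 with REEP6. Its levels of 10.7 ± 0.988 and 11.6 ± 0.113 FPKM gave a log2 fold change of 0.17 ± 0.0931 (adjusted p 0.224). This most abundant classical cadherin of these cells did not pass the test. CDH24, another type II gene singled out for its level, had 176, 225, 170 and 225 counts, with overlapping groups. The other numbered cadherins added 1 tested gene of 5, not called, and CDH5 and CDH13, of endothelium and smooth muscle, had at most 2 counts in any library.

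**Figure D2:**
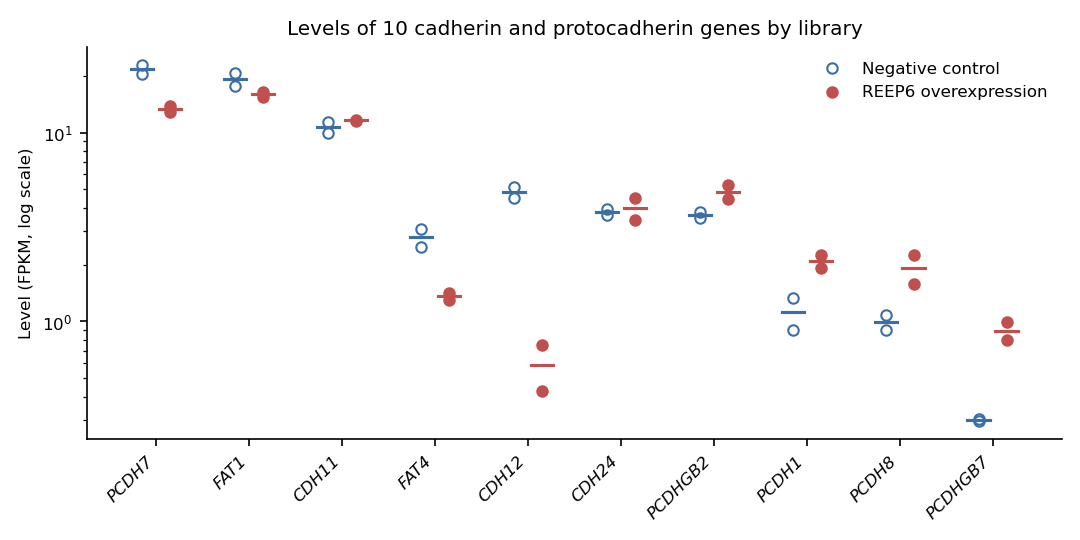
Level in FPKM, on a log axis, of 10 members in each library, with open blue points for the negative control, filled red points for REEP6 overexpression and short lines at the group means (n = 2 each). CDH12, FAT4 and PCDH7 lie lower with REEP6, PCDHGB7, PCDH1, PCDH8 and PCDHGB2 higher, and the points of CDH24 overlap.

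All 4 FAT genes had enough counts to be tested, and 1 fell, beside 12.1% of all tested genes called lower. FAT4, known with DCHS1 for planar polarity and Hippo signalling, lies on chromosome 4 at 125316399 to 125492932 and had 651 and 623 counts in the controls and 309 and 285 with REEP6. Both REEP6 libraries were below both controls. Its level was 2.79 ± 0.416 FPKM and 1.36 ± 0.0826 FPKM, a log2 fold change of -0.99 ± 0.131 (adjusted p 0.000616). FAT1, a giant cadherin mutated in many squamous carcinomas, lies on the same chromosome at 186587783 to 186726722 and had 4320 and 4362 counts in the controls and 3514 and 3334 with REEP6. Its groups did not overlap, at 19.3 ± 2.15 and 16.0 ± 0.649 FPKM, but the log2 fold change of -0.23 ± 0.0958 missed the threshold (adjusted p 0.109). Without control replicate 2 the FAT1 value was -0.33 (adjusted p 0.0227), and without control replicate 1 it was -0.13 (adjusted p 0.441). With equal FPKM sums and all libraries it was -0.38 (adjusted p 0.0262). FAT2 and FAT3 were under 1 FPKM and were not called.

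Of the FAT and Dachsous pathway list, 15 of 16 genes were tested, 1 was higher and 1 lower, beside 23.2% of all tested genes called in either direction. LIX1L, related to the FAT effector LIX1, had a log2 fold change of 0.37 (adjusted p 0.0369), and TAOK1, a kinase upstream of Hippo, one of -0.32 (adjusted p 0.0265). Neither call held without control replicate 1 (adjusted p 0.0534 and 0.0674). Without REEP6 replicate 2 the LIX1L value was 0.22 (adjusted p 0.356) and the TAOK1 value -0.34 (adjusted p 0.0854), and without REEP6 replicate 1 TAOK1 was at -0.29 (adjusted p 0.165).

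The delta protocadherins, single-gene protocadherins with conserved cytoplasmic motifs, moved in both directions. Of 8 genes, 3 had no count and 4 were tested, of which 2 were higher and 1 lower. The all-gene share called was 23.2%, and 26.6% at or above 1 FPKM, and 4 genes are too few to set against it. PCDH7, on chromosome 4 at 30720415 to 31146805, was the most abundant member in the controls. It had 3595 and 3789 counts there and 2229 and 2095 with REEP6, so that the groups did not overlap. Its level fell from 21.6 ± 1.76 to 13.3 ± 0.630 FPKM, a log2 fold change of -0.65 ± 0.0921 (adjusted p 0.000816), and FAT1 stood first in the REEP6 libraries.

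PCDH1, a protocadherin of airway epithelium and endothelium, lies on chromosome 5 at 141853111 to 141879246 and had 68 and 120 counts in the controls and 150 and 176 with REEP6. The controls differed from each other more than the REEP6 libraries did. Its level rose from 1.12 ± 0.312 to 2.08 ± 0.227 FPKM, a log2 fold change of 0.93 ± 0.219 (adjusted p 0.0112). PCDH8 (paraxial protocadherin, which limits N-cadherin adhesion in neurons), on chromosome 13 at 52842889 to 52848641, had 72 and 71 counts in the controls and 153 and 108 with REEP6. It rose from 0.997 ± 0.128 to 1.91 ± 0.472 FPKM, a log2 fold change of 0.98 ± 0.232 (adjusted p 0.0112). Without REEP6 replicate 1, its higher library, the PCDH8 value was 0.71 and no longer passed (adjusted p 0.114). Both genes missed the threshold when limma was run on log2(FPKM + 1), with adjusted p-values of 0.0648 for PCDH1 and 0.0711 for PCDH8.

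PCDH18 had 139 and 165 counts in the controls and 105 and 86 with REEP6. It was the uncalled member with the smallest p, at a log2 fold change of -0.55 ± 0.190 (adjusted p 0.0589). PCDH18 passed with library totals alone (adjusted p 0.0451), with equal FPKM sums and with the replicate number as a block. No other alternative called it. When each library was left out in turn, its log2 value lay between -0.70 and -0.41. PCDH12, the 1 tested gene of the other single-gene protocadherins, was not called. In the promoter of PCDH8, the RefSeq sequence just before the gene's start (GRCh38.p14, chr13:52848643-52848702, minus strand) holds a TATA box motif, TATAAA, shown in capitals because PCDH8 was the called gene among the single-gene protocadherins that has one.

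PCDH8: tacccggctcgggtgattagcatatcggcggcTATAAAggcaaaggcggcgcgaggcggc

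TATAAA, read on both strands of the 250 bases before a start, was present at 9 of the 93 starts listed for 74 members (9.68%) and at 10.7% of all 35116 starts in the table. Of the called members, PCDH8 and CDH12 hold TATAAA, CDH12 before a listed start that lies within the gene. The E-box CACCTG, the letters that ZEB and SNAI repressors are known to bind, was likewise at 9 of 93 member starts (9.68%), beside 17.5% of all starts. Of the 7 called members, FAT4 has no entry in the table, and of the others PCDH1 holds these letters. The listed start of PCDH1 also lies within the gene.

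The 54 clustered protocadherins lie on chromosome 5 within 140786136 to 141512981 on the plus strand, a span of 726846 bases. Most promoters of this row share a short element around the letters CGCT. The bases around these letters are shown for the 2 called genes, for uncalled neighbours and for 1 gene each of the alpha and beta rows. Each is a stretch of 26 bases from RefSeq promoters (GRCh38.p14, plus strand) with CGCT in capitals, and all lie outside annotated exons.

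PCDHA10: gccaccggatgtCGCTgtcgtccaca

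PCDHB13: gacgcgtggtggCGCTgcaggataag

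PCDHGB2: acctctgagcgtCGCTgttggtcaaa

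PCDHGA5: gactctgagtgtCGCTgttgaccaaa

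PCDHGA6: gactctaagcgtCGCTgttgaccaac

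PCDHGB6, first: gcctctgggcgcCGCTgtcggccagt

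PCDHGB6, second: gtgcagagcaagCGCTgacgccgggg

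PCDHGB7: gtgcagagcaagCGCTgacgccgggg

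In the order shown, the stretches are chr5:140855845-140855870, chr5:141213869-141213894, chr5:141359925-141359950, chr5:141364111-141364136, chr5:141373839-141373864, chr5:141407928-141407953, chr5:141407952-141407977 and chr5:141417611-141417636. PCDHGB6 has a pair of such stretches before its start, and the second has the same 26 letters as the stretch of PCDHGB7. The bases around CGCT in that shared stretch differ from those of the other gamma stretches shown. CGCT in the PCDHGB7 stretch may therefore not mark the shared element. CGCT on the gene's own strand, starting 100 to 30 bases before a start, was found at 43 of 52 listed starts of the clusters (82.7%), at 13 of 41 starts of the other members (31.7%) and at 21.6% of all starts. The stretch shown for PCDHGB2 lies farther from its listed start than that window. PCDHGA3, without a count in any library, and PCDHAC1, with the most counts of the alpha row, both hold these letters, which are given as a description only.

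Counts over the clusters were low but present: 37 of the 54 genes had at least 1 count in every library, 10 had none in any, and 18 could be tested. Of these, 2 were higher with REEP6, none was lower and 16 were not called. By row, 0 of 4 tested alpha genes, 0 of 5 tested beta genes and 2 of 9 tested gamma genes were called. That is 11.1% of the 18 tested cluster genes and 22.2% of the 9 gamma genes, beside 23.2% of all tested genes. Summed over each row, gamma genes had 552 and 618 counts in the controls and 678 and 600 with REEP6, beta genes 169 and 192 against 199 and 214, and alpha genes 363 and 416 against 322 and 374. Scaled to the library totals, the alpha row was at 28.2 and 27.4 CPM in the controls and 24.3 and 28.1 CPM with REEP6, so that its groups overlapped. The gamma row was at 42.9 and 40.6 against 51.2 and 45.1 CPM, and the beta row at 13.1 and 12.6 against 15.03 and 16.1 CPM, both without overlap. The gamma sums include the 2 called genes, PCDHGB2 (232 and 255 against 335 and 281 counts) and PCDHGB7 (19 and 23 against 65 and 53). The separation of the gamma sums therefore does not describe the rest of that row. These sums were not tested.

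**Figure D3:**
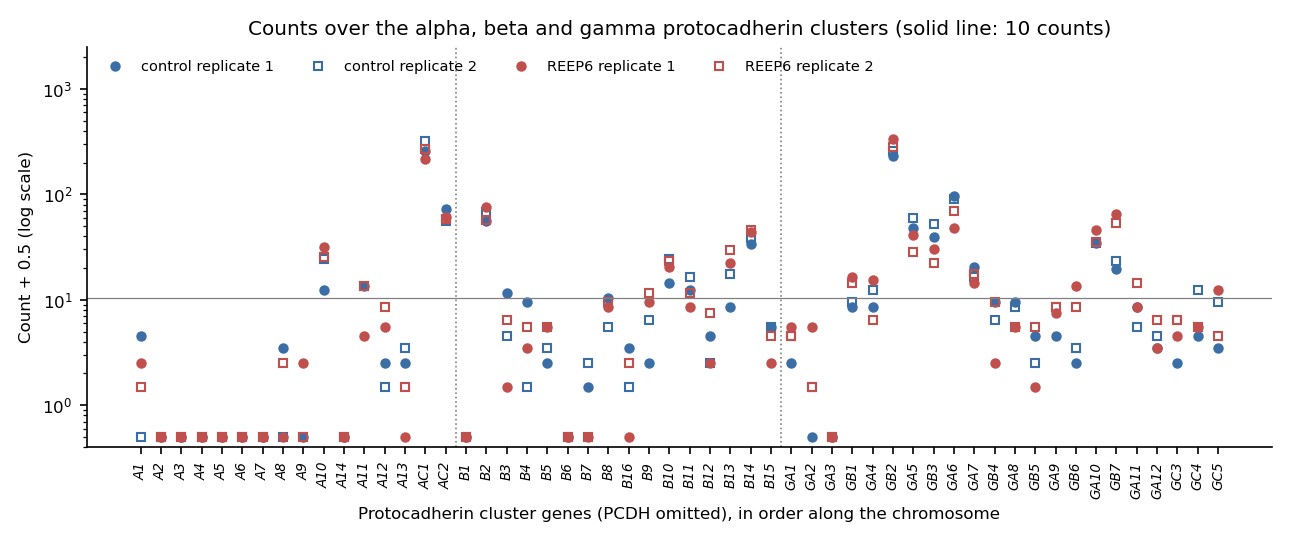
Counts (plus 0.5, log axis) of the 54 clustered protocadherin genes in the 4 libraries, in their order along chromosome 5, with dotted lines between the alpha, beta and gamma rows. AC1, near the end of the alpha row, and GB2 have the most counts, and the REEP6 points of GB7 lie above both control points.

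PCDHGB7 had 19 and 23 counts in the controls and 65 and 53 with REEP6. Its level rose from 0.301 ± 0.00490 to 0.896 ± 0.132 FPKM, a log2 fold change of 1.61 ± 0.325 (adjusted p 0.00535), the largest rise among the tested members. PCDHGB6, whose second stretch has the letters of PCDHGB7, was below the test minimum, with 2 and 3 counts in the controls and 13 and 8 with REEP6; it was singled out after its values were seen. PCDHGB2 had 232 and 255 counts in the controls and 335 and 281 with REEP6, at 3.65 ± 0.190 and 4.87 ± 0.621 FPKM. Its log2 fold change of 0.46 ± 0.149 passed narrowly (adjusted p 0.0456) and did not pass without control replicate 2 (0.42, adjusted p 0.0920) or without REEP6 replicate 1 (0.32, adjusted p 0.314).

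Other gamma genes had values on both sides of 0. PCDHGA5, PCDHGA6 and PCDHGB3, close to PCDHGB2 in the row and also picked after their values were seen, had log2 fold changes of -0.49, -0.56 and -0.68, none of them called. Constant exons are shared: 45.7% of the exon bases of PCDHGB2 and 43.9% of those of PCDHGB7 also belong to the other gamma genes. Of all stretches of 75 bases in their transcripts, 50.1% and 46.4% occur in other genes as well, and the treatment of such reads is not given in the sources used here. Counts of the alpha and gamma genes are therefore uncertain to that extent, whereas exons of beta genes share a median of 0% of their bases on the same strand. Counting either strand, that median is 5.14% and the highest value 24.9%, and the strand setting of the counts is not given.

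In the alpha row most counts lay on PCDHAC1, which had 255, 320, 217 and 266 counts and a log2 fold change of -0.13 (adjusted p 0.602). PCDHA10, with 12, 24, 31 and 25 counts in the same order, did not pass either. In the beta row PCDHB13 was the gene with the smallest p, with 8 and 17 counts in the controls and 22 and 29 with REEP6 (log2 fold change 1.16 ± 0.482, adjusted p 0.105). PCDHB2 had 55, 68, 76 and 57 counts, with overlapping groups.

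CTCF and cohesin are known to join cluster promoters to their enhancers, and SMCHD1 silences clustered genes. All 15 listed regulators of the clusters were tested, and 4 were higher and 4 lower, beside 11.1% and 12.1% of all tested genes; all 15 had a mean of at least 1 FPKM, where 26.6% of genes were called in either direction. SMCHD1 fell from 20.5 ± 1.08 to 11.9 ± 0.399 FPKM (log2 fold change -0.74, adjusted p 0.000329). The cohesin genes SMC3, STAG1 and STAG2 had log2 fold changes of -0.53, -0.50 and -0.38 (adjusted p 0.00206, 0.00976 and 0.0085), and SMC1A, the partner of SMC3, was called in the other direction. STAG2 did not pass without REEP6 replicate 1 (adjusted p 0.0727), nor STAG1 without REEP6 replicate 2 (adjusted p 0.0575). CTCF was at 0.16 and the cohesin subunit RAD21 at -0.04, neither called.

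**Figure D4:**
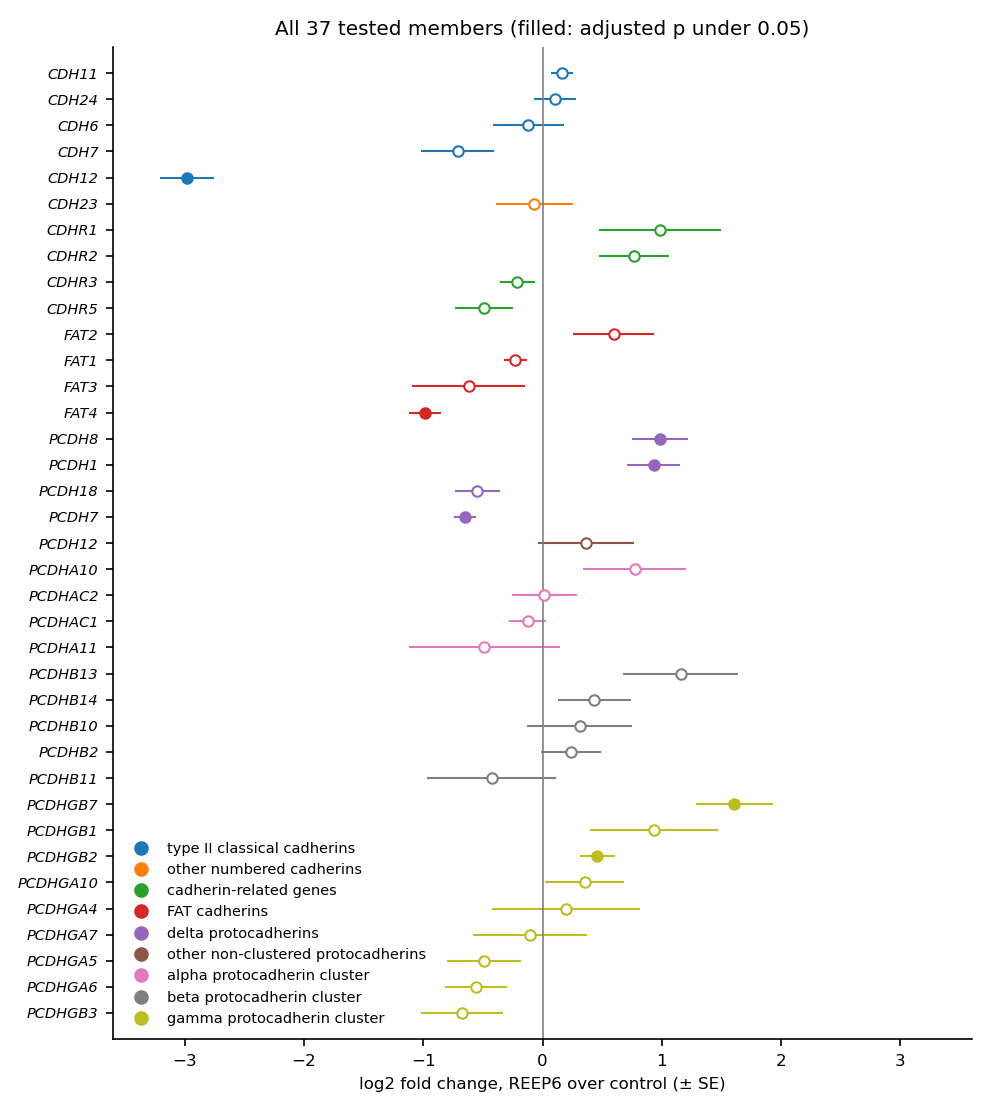
Log2 fold change, REEP6 over control, with its standard error, for the 37 tested members, coloured by subgroup and filled where the edgeR adjusted p is under 0.05. CDH12 at -2.98 stands apart on the left and PCDHGB7 at 1.61 is farthest to the right, and the 30 open points lie between -0.71 and 1.16.

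Cadherin-related genes, which include microvillar and photoreceptor adhesion proteins, held no call among 4 tested genes of 5. CDHR2 (an intermicrovillar adhesion protein of brush borders) had 83 and 48 counts in the controls and 110 and 98 with REEP6, at a log2 fold change of 0.77 ± 0.294 (adjusted p 0.0812). Its 2 controls differed widely, and without control replicate 1 the value was 1.33 (adjusted p 0.000241), while without control replicate 2 it was 0.34 (adjusted p 0.401). It passed without REEP6 replicate 2 (0.85, adjusted p 0.0457) and not without REEP6 replicate 1 (0.68, adjusted p 0.151). CDHR3 and CDHR5 were at 2.95 and 2.06 FPKM in the controls and 2.47 and 1.41 FPKM with REEP6, not called.

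Among the catenins and cytoplasmic partners, 2 core proteins were not called and several partners changed. CTNNB1 (beta-catenin) was at 53.1 ± 1.65 and 49.5 ± 0.530 FPKM and CTNND1 (p120-catenin) at 52.6 ± 1.80 and 48.1 ± 1.90 FPKM, with log2 fold changes of -0.06 and -0.09 that were not called (adjusted p 0.658 and 0.503). CTNNA1 (alpha-catenin) fell from 6.26 ± 0.360 to 3.96 ± 0.0886 FPKM (log2 fold change -0.62 ± 0.103, adjusted p 0.00188). JUP (plakoglobin, shared by adherens junctions and desmosomes) rose from 2.02 ± 0.0151 to 4.39 ± 0.425 FPKM (1.16 ± 0.159, adjusted p 0.000685). In all, 12 of 15 listed genes were tested, with 2 higher and 3 lower (over all tested genes 11.1% and 12.1%).

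LIMA1 (an actin-binding partner of alpha-catenin) had 1375 and 1777 counts in the controls and 628 and 584 with REEP6, a log2 fold change of -1.25 ± 0.0995 (adjusted p 3.24e-05). CTNNBIP1, an inhibitor of beta-catenin's binding to TCF factors, rose by a log2 value of 1.30 ± 0.199 (adjusted p 0.00124). The groups of both genes lie well apart. Of the nectins and junction regulators, 16 of 17 were tested, with 4 higher and 5 lower, against the same background. The receptor phosphatases PTPRM and PTPRK, which bind cadherin complexes, fell with log2 fold changes of -0.69 and -0.51, the junctional scaffold MAGI1 fell at -0.56, and SHROOM3, an organiser of apical actin, rose at 0.81 (adjusted p 0.00138, 0.00222, 0.00363 and 0.00244).

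**Figure D5:**
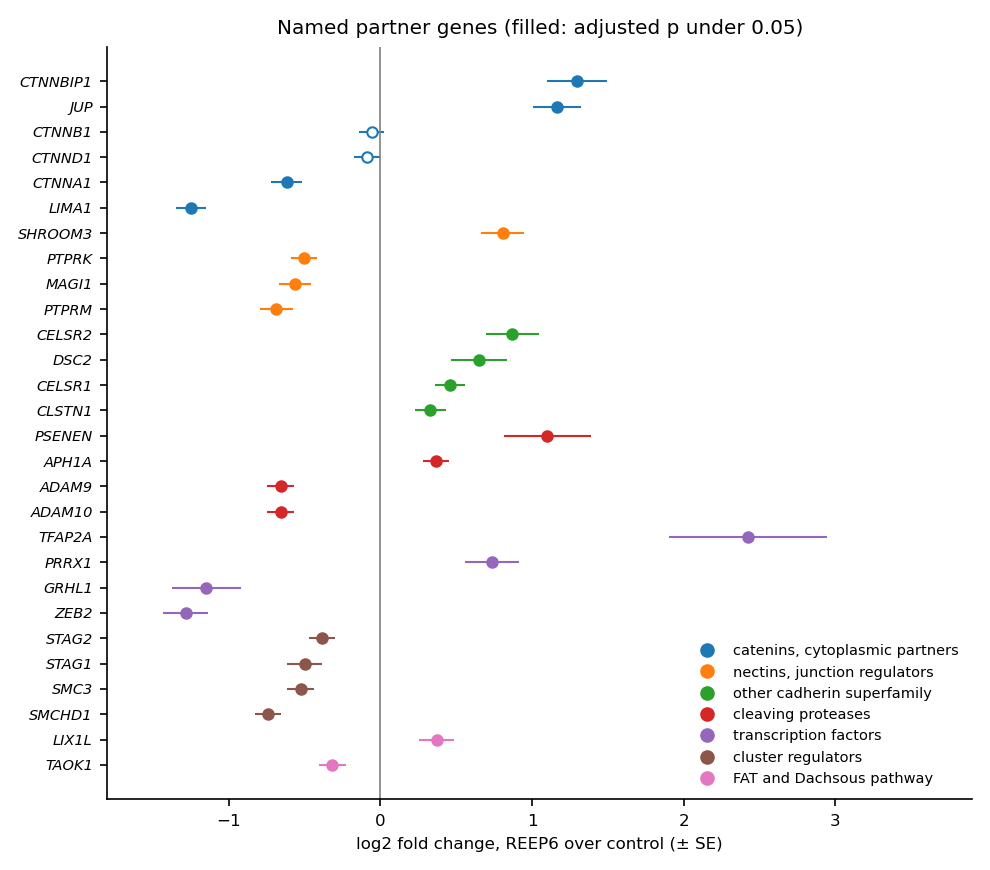
Log2 fold change, REEP6 over control, with its standard error, for the named genes of 7 lists of cadherin partners and regulators, coloured by list and filled where the edgeR adjusted p is under 0.05. TFAP2A at 2.42 is farthest to the right and ZEB2 at -1.28 farthest to the left, and the open points are CTNNB1 and CTNND1.

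The cadherin superfamily genes outside the name rule had 4 calls among 10 tested of 16, all higher, beside 11.1% of all tested genes called higher, and 1 of the 4 (CELSR2) kept its call with equal FPKM sums. CELSR2 and CELSR1, cadherins of planar polarity, had log2 fold changes of 0.87 ± 0.174 and 0.46 (adjusted p 0.00509 and 0.00787). DSC2, a desmosomal cadherin, was at 0.65 (adjusted p 0.0270) and CLSTN1, a calsyntenin, at 0.33 (adjusted p 0.0398). DSC2 did not pass without control replicate 1 or either REEP6 library (adjusted p 0.0955, 0.122 and 0.0582), nor CLSTN1 without control replicate 2 (0.21, adjusted p 0.198) or either REEP6 library (adjusted p 0.0894 and 0.111). The epidermal desmosomal genes DSG1, DSG3, DSC1 and DSC3 had at most 3 counts in any library. DSG2, another desmosomal cadherin, was at 10.8 ± 0.340 FPKM in the control and 9.59 ± 0.120 FPKM with REEP6, not called (adjusted p 0.342).

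Enzymes that cleave cadherins were tested for 11 of 15 genes, with 3 higher and 2 lower, beside 11.1% and 12.1% of all tested genes. ADAM10, the main sheddase of E- and N-cadherin and of gamma protocadherins, fell from 10.2 ± 0.287 to 6.28 ± 0.146 FPKM (log2 fold change -0.66, adjusted p 0.000644), and ADAM9 had the same log2 value, -0.66 (adjusted p 0.000685). Gamma-secretase subunits, which cut the remaining stump, were called higher for APH1A (0.37, adjusted p 0.0121) and PSENEN (1.10, adjusted p 0.0171). APH1A and PSENEN missed the threshold without REEP6 replicate 1 (adjusted p 0.0851 and 0.0632), and PSENEN also without control replicate 1 (0.86, adjusted p 0.0504).

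Of the transcription factors known to repress or switch cadherins, 9 of 19 were tested, with 3 higher and 2 lower, beside the same shares. ZEB2, a repressor of CDH1, fell from 1.48 ± 0.0179 to 0.589 ± 0.108 FPKM (log2 fold change -1.28 ± 0.149, adjusted p 0.000296), and GRHL1, of the grainyhead family of epithelial factors, fell at -1.15 (adjusted p 0.00472). TFAP2A, an epithelial and neural crest factor, had 4 and 7 counts in the controls and 26 and 29 with REEP6 (2.42 ± 0.522, adjusted p 0.00737), and PRRX1, a mesenchymal factor, was at 0.73 (adjusted p 0.0130). TFAP2A and PRRX1 missed the threshold with limma on log2(FPKM + 1) (adjusted p 0.0696 and 0.0804). TWIST1, KLF8 and OVOL1 had no count in any library.

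Markers of other cell types moved beside these results. As background for the calls among them, 11.1% of all tested genes were called higher and 12.1% lower. The summed level of 10 fibroblast markers was 34.5 to 36.6 FPKM in the controls and 18.1 to 18.3 FPKM with REEP6. Of 6 tested, 4 were lower (COL3A1, LUM, POSTN and PDGFRB), PDGFRA was higher and 1 was not called. FAP was at 0, and DCN, THY1 and COL1A2 had at most 6 counts in any library. The summed level of 9 neural markers was 57.8 to 65.3 FPKM in the controls and 41.1 to 43.1 FPKM with REEP6, with 1 of 5 tested genes lower (STMN2), GFAP at most 5 counts and ELAVL4 at 0. Endothelial markers summed to 0.426 to 0.577 FPKM and 0.146 to 0.178 FPKM, with PECAM1 lower and KDR at 0. Of 3 tested melanocyte genes MITF was lower, with sums of 1.52 to 1.65 FPKM and 0.849 to 1.21 FPKM and TYR at 0, and leukocyte markers had no call among 2 tested genes, with sums of 2.09 to 3.35 FPKM and 2.67 to 2.73 FPKM, and PTPRC and CD3E had at most 5 counts in any library. Their part in the falls of CDH12, FAT4 and PCDH7 was not tested.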

How the data were processed

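Per the file headers, the authors deposited 4 tables, 1 per library, of raw counts and FPKM for 51103 genes. The submitters' processing notes list HISAT2, HTSeq 0.13.5 and GRCh38 without roles. Strand setting and ambiguous reads are not described (not given in the sources used here). All 97 members matched GENCODE 29 by identifier and name, and for the 76 with a count the length implied by FPKM equalled the exon length there; coordinates are 1-based. FPKM was used for levels (mean ± SD). Counts were scaled by TMM and fitted with edgeR 4.0.16 (R 4.3.3), quasi-likelihood with an abundance trend, all 4 libraries, group as the only term and 2 residual degrees of freedom. Genes with at least 40 counts over the 4 libraries were tested, two-sided, with Benjamini-Hochberg adjustment over 15466 genes and a threshold of 0.05. The standard error is the log2 fold change over the square root of F. With 2 libraries a group, the smallest two-sided p of an exact permutation test is 0.333, so none was run. Replicates differed by more than sampling noise (chi-square per degree of freedom 10.7 in the control and 6.19 with REEP6). The method was tested on simulated data. Alternatives used limma 3.58.1 and DESeq2 1.42.0. Members and lists were chosen with earlier results of these data known. Named were REEP6, called members, members of at least 5 FPKM, the 4 uncalled members with the smallest p, and from each partner list up to 4 called genes with the smallest p plus CTNNB1, CTNNA1, CTNND1 and JUP; other genes were picked after their values were seen.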

Additional observations from a re-analysis of the deposited data

How the results depend on the processing

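CDH12, FAT4 and PCDH7 kept their calls in all 16 alternatives and PCDHGB7 in the 14 that tested it, none of the 7 called members changed sign, PCDH1 lost its call in 2, PCDH8 in 3 and PCDHGB2 in 10. The number of members called higher, 4, was 2 with a minimum of 1 FPKM in 2 libraries, 2 with at least 200 summed counts, 1 with limma on log2(FPKM + 1), 1 with limma on log2(FPKM + 0.1), and 2 to 5 when each library was left out. The number called lower, 3, was 5 with equal FPKM sums and 3 to 5 when each library was left out. Over all genes, 1716 were higher and 1865 lower; these counts were 754 and 3002 with equal FPKM sums, 645 and 1238 with limma on log2(FPKM + 1), 675 higher with limma on log2(FPKM + 0.1), 989 higher without the abundance trend, and 1136 to 1870 and 1207 to 2065 when each library was left out. Where a library was left out, the lone sample of that group was assumed to vary like the other group. DESeq2 made 6 of the same member calls, without PCDHGB2 (adjusted p 0.0938). With equal FPKM sums the named genes CELSR1, DSC2, CLSTN1, APH1A and LIX1L also missed the threshold (adjusted p 0.0594 to 0.296), and with limma on log2(FPKM + 1) SHROOM3, CELSR1, CELSR2, STAG1, TAOK1, DSC2, LIX1L and CLSTN1 did (0.0556 to 0.137). With the replicate number as a block, 8 members were higher and 7 lower, and 3318 and 3105 of all genes; the labels do not say that the number marks a shared culture, and same-numbered samples' deviations correlated at 0.22. The cause of these shifts was not tested. The minimum of 40 summed counts left 60 of the 97 members untested; with no minimum beyond 1 count, 76 were tested and 9 called, adding CDHR2 higher and CDHR4 (8 and 5 counts against 0 and 0) lower.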
